A study of Homo sapiens with 6 samples.

Results

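The genes described here encode the proteins that license and fire replication origins and build the replication fork, together with 5 E2F transcription factors that control many of them. They were 53 genes of a list of named members, matched by symbol in a table of 28265 genes, and all 53 had a row. RNA was sequenced from Huh7, a liver cancer cell line established from a human hepatocellular carcinoma, 48 h after lentiviral transduction, in 2 groups of 3 libraries each. The LHX2 libraries came from cells that carried a vector expressing LHX2, a LIM-homeodomain transcription factor, and the CTRL libraries from cells that carried a control vector and are labelled parental. All cells of both groups were thus transduced Huh7 cells in the same glucose-rich medium with serum, and the promoter driving LHX2 is not given in the sources. Whether the replicates were separate cultures is not stated in the labels, and the p-values therefore reflect the spread among these 6 libraries, which may be technical.

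Before S phase the origin recognition complex (ORC), CDC6 and CDT1 load a ring of MCM2 to MCM7 on DNA, and geminin, the product of GMNN, blocks CDT1 afterwards so that DNA is not licensed again. The kinase CDC7 with its activator DBF4, and then CDC45 and the GINS proteins, turn the loaded ring into an active helicase, behind which polymerases, the sliding clamp PCNA, the clamp loader RFC and the single-strand binding protein RPA copy the DNA. Many of these genes are transcribed late in G1 by the activator E2Fs E2F1, E2F2 and E2F3, while E2F7 and E2F8 repress the same promoters later in S phase.

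Total counts per library were 30029313 to 35194438 in the LHX2 group and 32625405 to 39653681 in the CTRL group. LHX2 itself had 2535, 2427 and 3126 counts in the LHX2 libraries, against 1, 2 and 1 in the CTRL libraries, as the labels have it. Of 10 hepatocyte markers none was at 0, and their summed level was 46850 to 50370 CPM (counts scaled to library size) in the LHX2 libraries and 49010 to 49730 CPM in the CTRL libraries. That sum was mostly AFP and ALB and does not show how single markers moved. AFP, SERPINA1, HNF4A, TTR and FGB were lower in each LHX2 library than in any CTRL library, TF was higher, and the others overlapped. Leukocyte markers summed to 1.30 to 2.08 CPM in the LHX2 libraries and 1.36 to 1.44 CPM in the CTRL libraries, with CD3E at 0, and endothelial markers to 2.84 to 3.23 CPM in the LHX2 libraries and 3.71 to 4.22 CPM in the CTRL libraries, with CDH5 at 0. The 3 fibroblast markers summed to 36.6 to 38.2 CPM in the LHX2 libraries and 8.75 to 10.1 CPM in the CTRL libraries, nearly all of it from COL1A2, while DCN had 0 counts in each LHX2 library and at most 1 count in a CTRL library. The part of these transcripts in the results was not tested. In bulk RNA, fewer cells in S phase and less RNA per cell cannot be told apart.

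The replication genes changed little when LHX2 was expressed. All 53 passed the filter on low counts, and each had at least 425 counts in every library. In the quasi-likelihood test of edgeR, with a Benjamini-Hochberg adjusted p below 0.05 as the threshold, 9 were higher with LHX2 (E2F7, E2F2, RFC3, MCM6, UHRF1, RFC2, POLE, ORC4 and RFC1), 2 were lower (DBF4 and ORC3) and 42 did not pass. The 11 calls were 20.8% of the members, where 32.5% of all 14533 genes tested were called and 40.4% of the 9085 genes whose mean reached 10 CPM, a level that every member exceeded. The share of higher members was 17.0%, where 16.6% of all genes and 18.9% of the genes reaching 10 CPM were higher. Without CTRL replicate 3 the 9 higher members became 5, where 2186 of 14785 genes were higher. The share of lower members was 3.77%, where 15.8% of all genes and 21.5% of the genes reaching 10 CPM were lower.

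The changes were also small in size. The median absolute log2 fold change was 0.07 over the 53 members, 0.12 over the genes with at least 10 CPM and 0.16 over all genes tested, and the median signed change was 0.02, -0.01 and 0.01 in the same 3 sets. A fold change beyond 1.2 was fitted for 2 of the 53 members, E2F7 and E2F2, which was 3.77% of them, against 19.4% of the genes with at least 10 CPM. For 47 members the 95% interval of the fold change lay within 1.2-fold in both directions, so a larger change was outside the interval for most of the list. Of the 42 members that did not pass, CDT1 was the exception, with an upper bound of 0.33 on the log2 scale, and the lowest bound was -0.26 for POLE2. The LHX2 libraries lay all above the CTRL libraries for 12 members, where 22.9% of all genes tested did, and all below for 8, where 22.1% did. Together these 20 members were 37.7% of the list, against 44.9% of all genes tested.

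**Figure D1:**
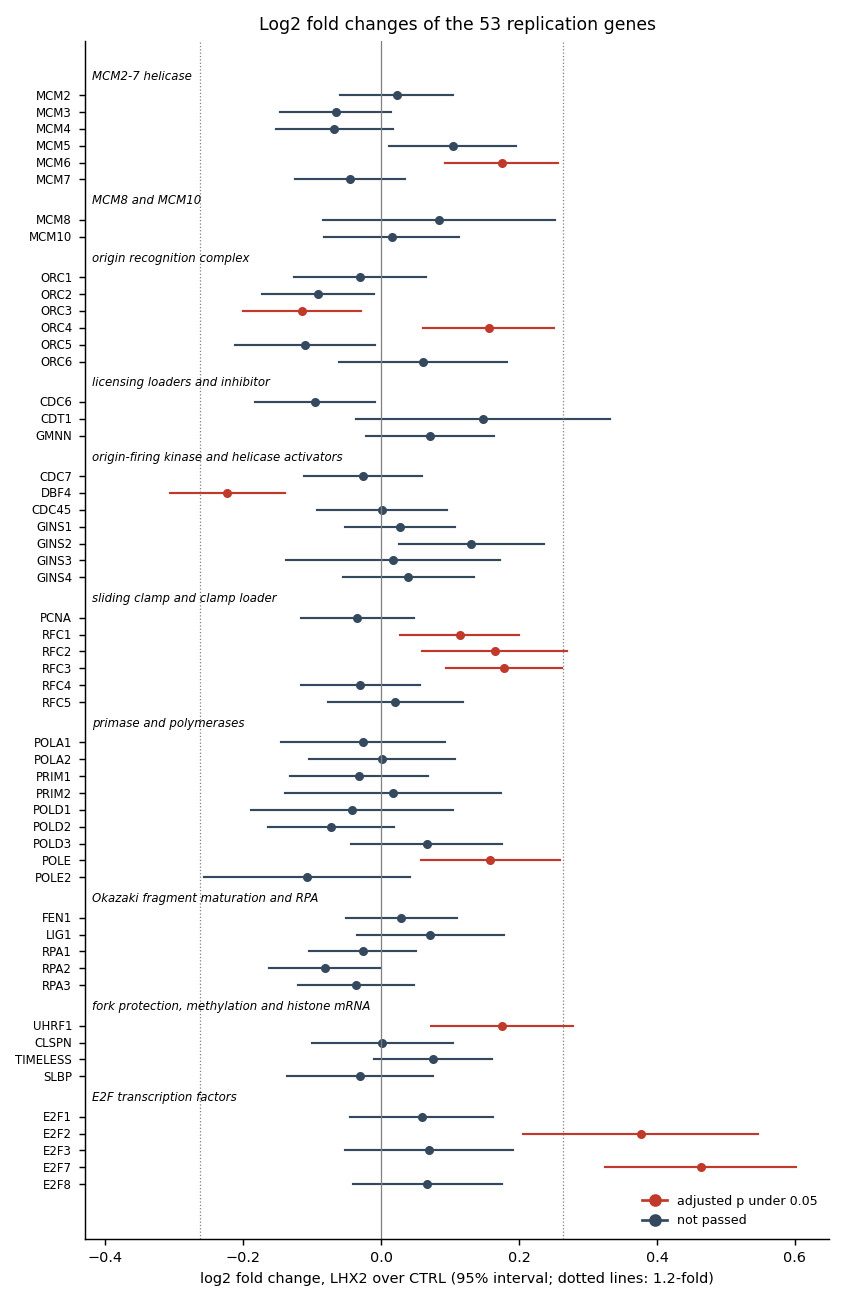
Log2 fold change of LHX2 over CTRL for each of the 53 replication genes, grouped by role, with the 95% interval as a line. Red marks the 11 members with an adjusted p under 0.05, and dotted lines mark 1.2-fold; E2F7 and E2F2 alone have their points beyond those lines.

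**Figure D2:**
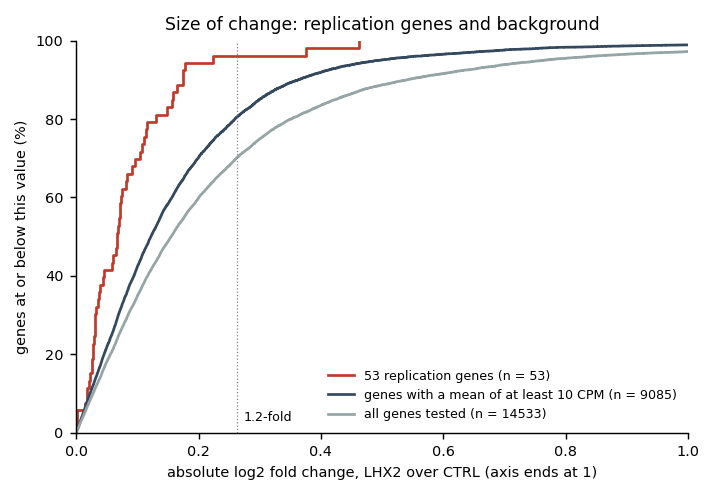
Share of genes, in percent, whose absolute log2 fold change was at or below the value on the x axis, for the 53 replication genes, the 9085 genes whose mean reached 10 CPM and all 14533 genes tested. The x axis ends at 1; at 1.2-fold the replication genes have 2 members still to come.

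The calls of 5 members, MCM6, DBF4, RFC3, E2F2 and E2F7, held under each of the 17 alternatives run. Their promoters are shown because E2F proteins act at such windows and the members moved in different directions. Each is the 250 bases before the RefSeq gene start on the gene's own strand, in build GRCh38.p14: MCM6 at chr2:135876444-135876693 (minus strand), DBF4 at chr7:87876243-87876492 (plus strand), RFC3 at chr13:33817899-33818148 (plus strand), E2F2 at chr1:23531234-23531483 (minus strand) and E2F7 at chr12:77065570-77065819 (minus strand). Capitals mark E2F words (TTTGGCGC, TTTCCCGC, TTTGCCGC or TTTCGCGC), the CCAAT word and the CHR words TTTGAA or TTCGAA, each on either strand.
MCM6: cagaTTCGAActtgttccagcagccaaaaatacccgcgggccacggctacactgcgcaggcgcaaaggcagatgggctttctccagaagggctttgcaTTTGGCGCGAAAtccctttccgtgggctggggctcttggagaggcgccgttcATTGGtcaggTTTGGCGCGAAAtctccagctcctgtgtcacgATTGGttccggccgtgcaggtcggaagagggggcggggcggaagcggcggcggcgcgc
DBF4: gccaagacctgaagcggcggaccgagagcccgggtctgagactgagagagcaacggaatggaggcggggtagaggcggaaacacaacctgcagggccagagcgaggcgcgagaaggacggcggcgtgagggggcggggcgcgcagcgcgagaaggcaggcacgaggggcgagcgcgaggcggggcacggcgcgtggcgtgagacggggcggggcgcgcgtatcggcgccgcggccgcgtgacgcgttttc
RFC3: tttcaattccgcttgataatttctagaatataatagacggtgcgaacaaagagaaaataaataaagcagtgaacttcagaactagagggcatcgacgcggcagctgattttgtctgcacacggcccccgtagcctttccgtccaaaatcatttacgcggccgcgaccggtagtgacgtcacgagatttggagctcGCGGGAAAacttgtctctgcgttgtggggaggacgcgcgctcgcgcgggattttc
E2F2: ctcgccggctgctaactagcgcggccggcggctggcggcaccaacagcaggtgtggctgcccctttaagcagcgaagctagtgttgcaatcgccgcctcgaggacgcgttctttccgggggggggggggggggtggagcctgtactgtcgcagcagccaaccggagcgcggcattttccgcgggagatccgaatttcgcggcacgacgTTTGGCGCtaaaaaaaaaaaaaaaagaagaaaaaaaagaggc
E2F7: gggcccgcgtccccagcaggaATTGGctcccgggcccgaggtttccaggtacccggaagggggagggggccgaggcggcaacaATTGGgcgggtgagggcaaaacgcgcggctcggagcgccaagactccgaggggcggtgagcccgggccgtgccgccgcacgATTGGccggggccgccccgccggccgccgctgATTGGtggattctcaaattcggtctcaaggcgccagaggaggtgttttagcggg

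The MCM6 window held the E2F words TTTGGCGC and GCGCGAAA in overlap at 2 places, starting 152 and 90 bases before the gene start, with 2 CCAAT words near them. It also held the CHR word TTCGAA, starting 246 bases before the gene start. RFC3 had GCGGGAAA starting 55 bases before the start, and E2F2 had TTTGGCGC starting 42 bases before it. E2F7 had 4 CCAAT words and no E2F word of this form, and the DBF4 window, with 73.6% G and C, had none of the words searched. Of the 53 members 46 had an entry in the RefSeq promoter table (not MCM4, MCM5, GINS4, POLD3, RPA2, RPA3 or E2F8), and 18 of them, or 39.1%, held an E2F word, where 3.4% of all 27305 genes in that table did. The CCAAT word was in 60.9% of the matched members and 37.0% of all genes, and a CHR word in 4.35% of members and 17.2% of all genes. These shares of all genes include genes not expressed here, while every member was expressed, so the compared sets are not alike. An E2F word stood in 6 of the 11 members that passed the test (E2F2, MCM6, ORC3, POLE, RFC3 and UHRF1) and in 12 of the 35 matched members that did not pass. A match of letters is a description of the window and not evidence of binding.

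The ORC genes, whose products mark origins, went both ways by small amounts. ORC4 (chromosome 2, 147930396 to 148021551) had 53.3, 53.1 and 53.3 CPM in the LHX2 libraries, against 46.3, 48.0 and 49.1 CPM in the CTRL libraries. The groups did not overlap, and ORC4 rose by 0.16 ± 0.04 on the log2 scale (SE; edgeR adjusted p = 0.014). That call was lost without CTRL replicate 1 (0.13) or CTRL replicate 2 (0.16). It was also lost with a replicate block and a transcript length and GC trend taken out together (0.12). ORC3 (chromosome 6, 87590135 to 87677823) had 105, 103 and 98.2 CPM in the LHX2 libraries, against 108, 112 and 111 CPM in the CTRL libraries. Its log2 fold change was -0.12 ± 0.04 (SE, adjusted p = 0.039), a call lost in 11 of the 17 alternatives, among them each library left out except LHX2 replicate 1. With the transcript length and GC trend taken out ORC3 was at -0.07, and in the other fits that lost the call it lay between -0.13 and -0.09. ORC2 (-0.09) and ORC5 (-0.11) also had all LHX2 libraries below the CTRL libraries but did not pass, and ORC1 (-0.03) and ORC6 (0.06) overlapped between the groups.

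Exons of ORC4 overlap those of ACVR2A over 4.82% of their bases and those of MBD5 over 1.76%, both on the opposite strand. The library kit keeps the strand, but the sources do not give the strand setting of the counting. Reads over the shared bases could thus have been added to these counts from the neighbours or left out of them, which was not tested. The overlap of DBF4 with SLC25A40, also on the opposite strand, covers 3.10% of its exon bases. Other members overlap neighbours too, among them FEN1 with TMEM258 (6.70%), RFC5 with WSB2 (5.7%) and PRIM1 with HSD17B6 (5.42%), on the opposite strand. FEN1 with FADS2 (1.98%) and PRIM1 with NACA (1.35%) overlap on the same strand, where a strand setting cannot separate the reads.

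None of the 3 genes that load the helicase or restrain its loading passed the test. CDC6, a loader that acts with ORC, had 207, 205 and 197 CPM in the LHX2 libraries and 207, 219 and 224 CPM in the CTRL libraries (log2 fold change -0.10 ± 0.04, SE, adjusted p = 0.088). It passed at -0.11 once a dependence on transcript length and GC content had been taken out. CDT1, the other loader, was among the least abundant members and had 17.1, 18.9 and 19.6 CPM in the LHX2 libraries and 17.6, 17.8 and 14.7 CPM in the CTRL libraries, with a log2 fold change of 0.15 ± 0.09 (SE, adjusted p = 0.21). GMNN, which encodes the CDT1 inhibitor geminin, had 83.1, 85.0 and 90.6 CPM in the LHX2 libraries and 82.7, 80.8 and 83.1 CPM in the CTRL libraries (0.07 ± 0.04, SE). The lowest LHX2 library and the highest CTRL library of GMNN were thus nearly equal, although GMNN passed at 0.15 with the length and GC trend taken out.

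Among the 6 subunits of the MCM ring, MCM6 rose and the other 5 did not pass. MCM6 (chromosome 2, 135839626 to 135876443) had 187, 178 and 185 CPM in the LHX2 libraries, against 159, 166 and 162 CPM in the CTRL libraries. Each LHX2 library was above each CTRL library, and the log2 fold change was 0.18 ± 0.04 (SE; edgeR adjusted p = 0.0026), with values of 0.15 to 0.20 over the alternatives. MCM7, the most abundant subunit, had 631, 603 and 618 CPM in the LHX2 libraries and 641, 636 and 634 CPM in the CTRL libraries (log2 fold change -0.05 ± 0.04, SE, adjusted p = 0.39). MCM5 had 102, 99.2 and 106 CPM in the LHX2 libraries and 96.9, 97.5 and 91.1 CPM in the CTRL libraries, and its log2 fold change of 0.10 (adjusted p = 0.080) passed with library totals alone (0.13). MCM2 (0.02), MCM3 (-0.07) and MCM4 (-0.07) did not pass under any alternative.

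MCM8 and MCM10 act outside the licensing ring, MCM8 in homologous recombination with MCM9 and MCM10 in starting the fork. MCM8 was variable, with 406, 452 and 340.3 CPM in the LHX2 libraries and 349.8, 376 and 405 CPM in the CTRL libraries, and did not pass (0.08 ± 0.08, SE, adjusted p = 0.46). It passed at 0.19 without LHX2 replicate 3, the lowest of the 6 libraries. MCM10 had 75.5, 80.3 and 73.7 CPM in the LHX2 libraries and 76.2, 73.1 and 77.9 CPM in the CTRL libraries, and the groups overlapped (0.01 ± 0.05, SE).

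DBF4, the activating subunit of the origin-firing kinase, had the largest fall of the list. It had 81.9, 82.0 and 81.9 CPM in the LHX2 libraries, against 98.2, 94.9 and 93.9 CPM in the CTRL libraries (chromosome 7, 87876493 to 87909553). DBF4 fell 1.17-fold in LHX2 cells (log2 fold change -0.22 ± 0.04, SE; edgeR adjusted p = 0.00047), between -0.24 and -0.20 over the alternatives. The catalytic subunit gene CDC7 had 65.9, 67.2 and 65.9 CPM in the LHX2 libraries and 67.2, 67.3 and 68.1 CPM in the CTRL libraries, which touch in range (-0.03 ± 0.04, SE, adjusted p = 0.66). Pseudogenes are annotated for DBF4 (DBF4P1) and also for RFC3 (RFC3P1), PCNA (PCNAP1, PCNAP3 and PCNAP4), FEN1 (FEN1P1), RFC5, POLD2, RPA2 and E2F3, and reads shared with them would leave the levels of these members uncertain.

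The helicase activators CDC45 and GINS1 to GINS4 did not pass. GINS1, the most abundant of this group, had 109.9, 111 and 113 CPM in the LHX2 libraries and 107, 110.4 and 109.6 CPM in the CTRL libraries (0.03 ± 0.04, SE). GINS2 had 48.1, 45.6 and 49.6 CPM in the LHX2 libraries, against 43.3, 44.9 and 42.7 CPM in the CTRL libraries, without overlap. Its log2 fold change of 0.13 ± 0.05 (SE) lay just outside the threshold (adjusted p = 0.055) and passed in 4 of the 17 alternatives, among them the one without LHX2 replicate 2 (0.16). CDC45 (0.00), GINS3 (0.02) and GINS4 (0.04) had overlapping groups.

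The clamp loader RFC, which opens PCNA and sets it on DNA, had 3 of its 5 subunit genes higher. Of all genes tested 16.6% were higher, and of the genes reaching 10 CPM 18.9%. RFC3 alone among these subunits kept its call under each of the 17 alternatives. RFC3 (chromosome 13, 33818149 to 33977377) had 115, 114 and 108 CPM in the LHX2 libraries, against 99.8, 99.1 and 98.9 CPM in the CTRL libraries. The lowest LHX2 library stood well above the narrow CTRL range, and RFC3 rose by 0.18 ± 0.04 on the log2 scale (SE; edgeR adjusted p = 0.0029). RFC2 had 59.0, 57.2 and 60.4 CPM in the LHX2 libraries, against 54.6, 53.7 and 49.3 CPM in the CTRL libraries (0.16 ± 0.05, SE, adjusted p = 0.018). Without CTRL replicate 3, its lowest library, RFC2 did not pass (0.12), nor without LHX2 replicate 1 (0.16) or LHX2 replicate 3 (0.14). The fit with a replicate block lost the RFC2 call as well (0.17).

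RFC1, the large subunit, had 154, 160.3 and 151 CPM in the LHX2 libraries, against 138, 146 and 145 CPM in the CTRL libraries. Its groups did not overlap, but the change of 0.11 ± 0.04 (SE, adjusted p = 0.042) passed narrowly and was lost in 10 of the 17 alternatives, among them each library left out except LHX2 replicate 3. RFC4 had 91.4, 87.2 and 86.6 CPM in the LHX2 libraries and 91.9, 89.6 and 89.2 CPM in the CTRL libraries (-0.03 ± 0.04, SE), and RFC5 differed by 0.02 ± 0.05 (SE). PCNA, the clamp, had 327, 326 and 342 CPM in the LHX2 libraries and 346, 342 and 332 CPM in the CTRL libraries. Its groups overlapped, and the 95% interval of its log2 fold change ran from -0.12 to 0.05.

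Of the 9 primase and polymerase genes POLE passed the test. POLE, the catalytic subunit of the leading-strand polymerase epsilon (chromosome 12, 132623762 to 132687342), had 117, 132 and 129.9 CPM in the LHX2 libraries, against 116, 114 and 110.3 CPM in the CTRL libraries. The lowest LHX2 library was just above the highest CTRL library, and the log2 fold change was 0.16 ± 0.05 (SE; edgeR adjusted p = 0.018). It was 0.00 with the length and GC trend taken out, and the call was also lost without LHX2 replicate 2 (0.13), CTRL replicate 2 (0.16) or CTRL replicate 3 (0.14). The fits with a replicate block lost the POLE call as well. POLE2, its accessory subunit, had 24.0, 21.8 and 23.8 CPM in the LHX2 libraries and 26.9, 23.6 and 24.6 CPM in the CTRL libraries (-0.11 ± 0.07, SE, adjusted p = 0.26).

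The lagging-strand polymerase delta and the polymerase alpha-primase, which lays the primers, showed no call. POLD2, an accessory subunit of delta and the second most counted gene of this group, had 101, 93.0 and 95.7 CPM in the LHX2 libraries and 103, 103 and 98.7 CPM in the CTRL libraries (-0.07 ± 0.04, SE). POLD1, the catalytic subunit, spread widely within both groups, with 63.1, 65.7 and 75.0 CPM in the LHX2 libraries and 72.3, 74.7 and 63.1 CPM in the CTRL libraries. It did not pass (-0.04 ± 0.07, SE, adjusted p = 0.67), but was called lower at -0.16 with that trend taken out. POLD3, POLA1, POLA2, PRIM1 and PRIM2 lay between -0.03 and 0.07 and overlapped between the groups.

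The genes for Okazaki fragment maturation and RPA also showed no call. FEN1, the flap nuclease and the most counted of them, had 336, 331 and 318 CPM in the LHX2 libraries and 317, 324 and 323 CPM in the CTRL libraries (0.03 ± 0.04, SE, adjusted p = 0.60). RPA2, a subunit of the single-strand binding complex, had 106, 103 and 107 CPM in the LHX2 libraries, against 113, 111 and 112 CPM in the CTRL libraries. Its groups did not overlap, yet the log2 fold change of -0.08 ± 0.04 (SE) had an adjusted p of 0.11. The ligase gene LIG1 (0.07), RPA1 (-0.03) and RPA3 (-0.04) overlapped between the groups.

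UHRF1, which reads hemimethylated DNA at the fork and recruits the maintenance methyltransferase, had 92.4, 88.8 and 94.9 CPM in the LHX2 libraries, against 84.8, 83.9 and 76.0 CPM in the CTRL libraries. It rose by 0.17 ± 0.05 on the log2 scale (SE; edgeR adjusted p = 0.012; chromosome 19, 4903080 to 4962154). The call was lost without CTRL replicate 3 (0.13), the lowest library. It was also lost with a replicate block and the length and GC trend taken out together. TIMELESS, a fork protection factor and the most counted of these 4 genes, had 186, 181 and 193 CPM in the LHX2 libraries and 172, 178 and 183 CPM in the CTRL libraries (0.07 ± 0.04, SE, adjusted p = 0.17). CLSPN, which carries the checkpoint signal from stalled forks (0.00 ± 0.05, SE), and SLBP, which binds the ends of histone mRNAs (-0.03 ± 0.05, SE), overlapped between the groups.

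The 2 largest changes of the list were in E2F genes. E2F7, a repressor E2F (chromosome 12, 77021251 to 77065569), had 23.9, 25.9 and 25.8 CPM in the LHX2 libraries, against 18.6, 18.1 and 18.2 CPM in the CTRL libraries. All LHX2 libraries were above all CTRL libraries, and E2F7 rose 1.38-fold (log2 fold change 0.46 ± 0.06, SE; edgeR adjusted p = 6.8e-05), between 0.43 and 0.49 over the alternatives. E2F2, an activator E2F (chromosome 1, 23505212 to 23531233), had 26.1, 21.3 and 23.4 CPM in the LHX2 libraries, against 18.1, 17.4 and 19.2 CPM in the CTRL libraries. E2F2 rose by 0.38 ± 0.08 (SE, adjusted p = 0.0021), between 0.27 and 0.44 over the alternatives.

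The other E2F genes of the list did not pass. E2F1, the most counted of the 5, had 56.3, 52.4 and 56.7 CPM in the LHX2 libraries and 54.9, 51.3 and 52.8 CPM in the CTRL libraries (0.06 ± 0.05, SE, adjusted p = 0.39). E2F8, the closest relative of E2F7, had 40.4, 41.0 and 42.4 CPM in the LHX2 libraries and 41.1, 39.6 and 37.6 CPM in the CTRL libraries (0.07 ± 0.05, SE, adjusted p = 0.34). E2F3 differed by 0.07 ± 0.06 (SE), and the 95% intervals of E2F1, E2F3 and E2F8 ended at or below 0.19.

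**Figure D3:**
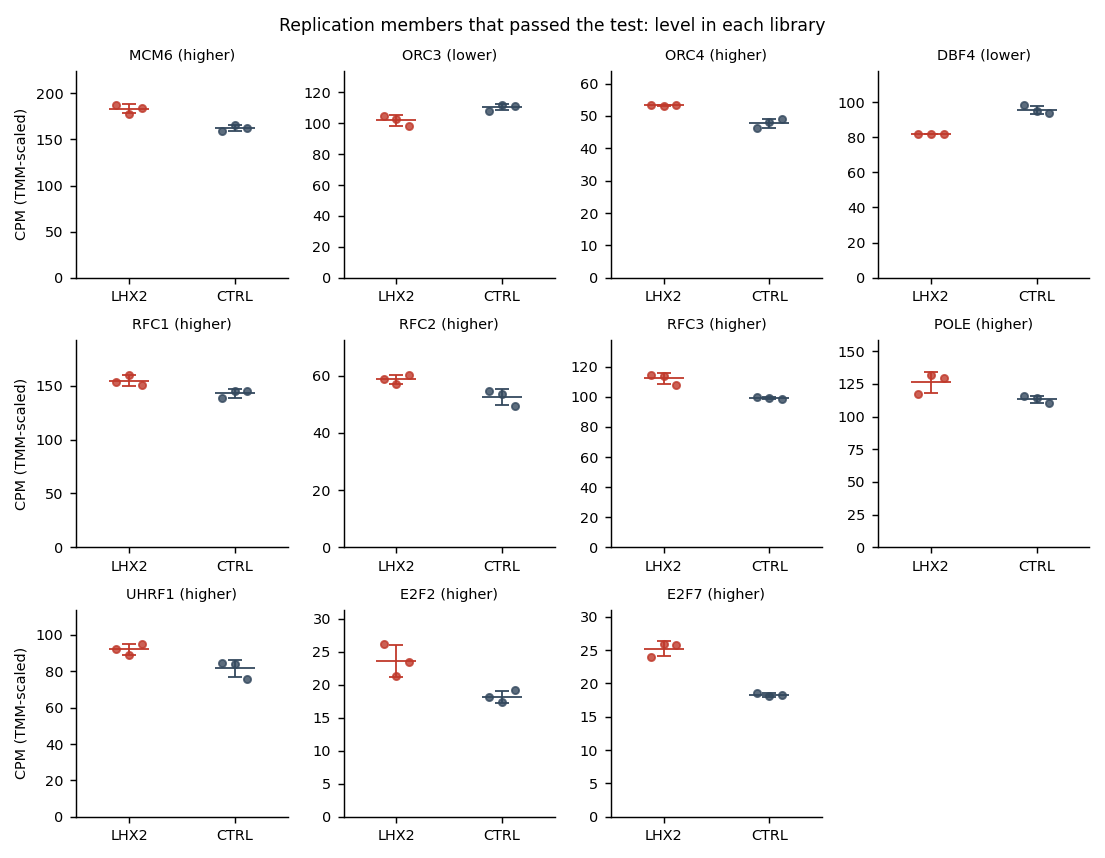
Level in CPM (TMM-scaled, axes from 0) of the 11 members that passed the test, in each of the 3 LHX2 and 3 CTRL libraries (points), with mean and SD (bars). In each panel the groups do not overlap; E2F7 and E2F2 have the largest fold changes between the group means, 1.38 and 1.30.

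Levels can be compared between genes per transcript length, here as CPM per kb of the longest GENCODE transcript of each gene. On that scale PCNA had the highest level of the 53 genes, 244 ± 6.81 CPM per kb in the LHX2 libraries and 250.1 ± 5.29 CPM per kb in the CTRL libraries (SD, n = 3 each). MCM7 followed at 200.2 ± 4.58 CPM per kb in the LHX2 libraries and 207 ± 1.14 CPM per kb in the CTRL libraries (SD, n = 3 each), and FEN1 came next. The other subunits of the MCM ring ranged from 28.9 CPM per kb (MCM5) to 66.7 CPM per kb (MCM4) in the LHX2 libraries and from 26.9 (MCM5) to 69.9 (MCM4) CPM per kb in the CTRL libraries, although the ring holds its subunits in equal number. E2F2 and E2F7 were at ranks 52 and 53, with 4.55 ± 0.467 and 4.39 ± 0.195 CPM per kb in the LHX2 libraries and 3.50 ± 0.173 and 3.18 ± 0.0476 CPM per kb in the CTRL libraries (SD, n = 3 each). These levels depend on the transcript taken as the length. On the opposite strand, 8.94% of the exon bases of MCM7 overlap AP4M1 and 6.70% of those of FEN1 overlap TMEM258.

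**Figure D4:**
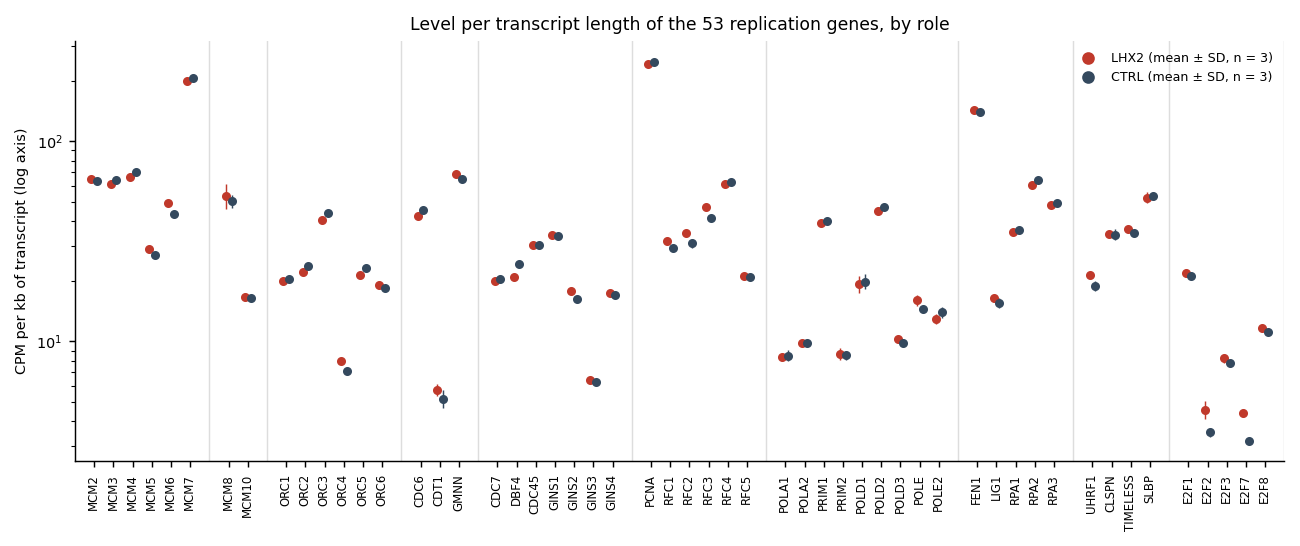
Level of the 53 replication genes in CPM per kb of transcript (log axis), mean and SD of the 3 LHX2 libraries (red, left of each pair) and the 3 CTRL libraries (dark blue, right), with vertical lines between role groups. Levels range from 250.1 CPM per kb for PCNA in the CTRL libraries to 3.18 for E2F7 in the CTRL libraries, a range far wider than the difference between the groups for any gene.

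Count ratios of partner genes within a library do not depend on the scaling between libraries. The pairs, each of a member that passed and a partner that did not, were chosen after their values were seen and are given as a description, without a test. The DBF4 to CDC7 ratio was 1.24, 1.22 and 1.24 in the LHX2 libraries, against 1.46, 1.41 and 1.38 in the CTRL libraries. The RFC3 to RFC4 ratio was 1.26, 1.31 and 1.25 in the LHX2 libraries, against 1.09, 1.11 and 1.11 in the CTRL libraries, and MCM6 to MCM2 stood at 0.785 ± 0.015 in the LHX2 libraries and 0.706 ± 0.00681 in the CTRL libraries (SD, n = 3 each). E2F7 to E2F8 gave 0.591, 0.631 and 0.608 in the LHX2 libraries, against 0.453, 0.457 and 0.484 in the CTRL libraries. In the 9 pairs plotted the groups did not overlap, which the choice of pairs favoured. The ratios keep any dependence on transcript length and GC content, and the POLE change was 0.00 with that trend taken out.

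**Figure D5:**
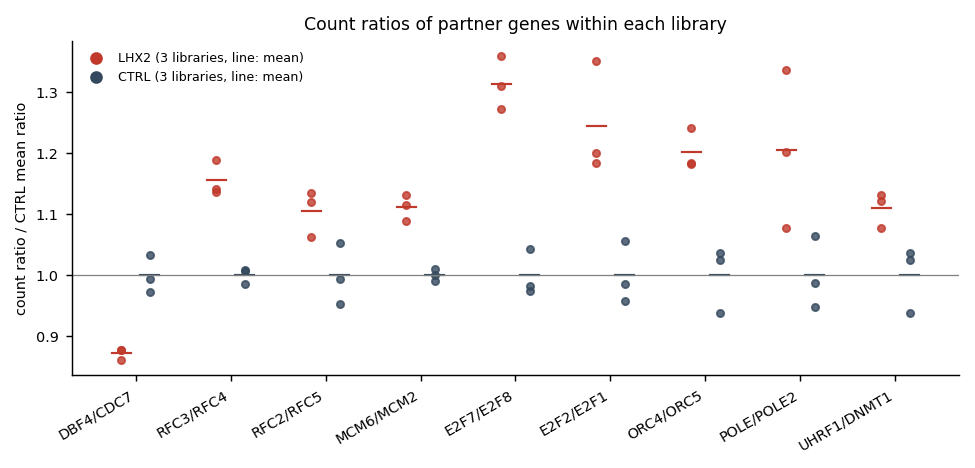
Count ratio of 9 pairs of partner genes in each library, divided by the mean ratio of the CTRL libraries; points are libraries (LHX2 red, left; CTRL blue, right) and lines are means. The DBF4 to CDC7 ratio lies below the CTRL libraries, at 0.872 of their mean, and the E2F7 to E2F8 ratio is farthest above, at 1.31.

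Other genes of the pathway, in 6 lists of 70 genes, are given beside the members. Of the 69 that were tested, 10 were higher, 8 lower and 51 did not pass, so that 26.1% were called, where 32.5% of all genes tested and 40.4% of the genes reaching 10 CPM were called. Their median absolute log2 fold change was 0.08, and 14.5% lay beyond 1.2-fold, against 3.77% of the 53 members and 19.4% of the genes reaching 10 CPM. Unlike those 2 sets, these lists hold genes far below 10 CPM. Among them ATRIP (0.29 ± 0.45, SE) and CDKN1A (0.27 ± 0.25, SE) lay beyond 1.2-fold without passing the test. CHTF8 had 0 counts in all libraries and was not tested. Of 23 further replication factors 2 rose, 4 fell and 17 did not pass. MCM9, the partner of MCM8, rose (0.33) and so did POLD4, the small subunit of polymerase delta (0.31), while TOP1, which relaxes DNA ahead of the fork, fell to 207 ± 8.53 CPM in the LHX2 libraries, against 259 ± 1.41 CPM in the CTRL libraries (SD, n = 3 each; -0.32), and POLE3, a small subunit of polymerase epsilon, fell (-0.20). MCMBP, which binds MCM subunits outside the ring, was also lower (-0.20 ± 0.04, SE, adjusted p = 0.0022) and was named after its values were seen.

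Kinases and cyclins of S-phase entry split, with 2 of 10 higher, 3 lower and 5 not passing, where 16.6% of all genes tested were higher and 15.8% lower. CCNE2, which encodes cyclin E2, had 26.7, 27.5 and 23.4 CPM in the LHX2 libraries, against 18.6, 17.6 and 18.1 CPM in the CTRL libraries (0.51 ± 0.07, SE; edgeR adjusted p = 8.6e-05). SKP2, the ubiquitin ligase subunit that marks the CDK inhibitor p27 and CDT1 for destruction, had 268, 267 and 272 CPM in the LHX2 libraries, against 319.6, 327 and 324 CPM in the CTRL libraries (-0.27 ± 0.04, SE, adjusted p = 4.5e-05). CCNA2, the cyclin A2 gene, fell as well (-0.25), and so did the CDK-activating phosphatase gene CDC25A (-0.16). The CDC25A call was lost without CTRL replicate 2 (-0.15).

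Of 6 genes of deoxynucleotide supply, the thymidine kinase gene TK1 (0.38) and the thymidylate synthase gene TYMS (0.11) rose and 4 did not pass, and the TYMS call was lost in 9 of 17 alternatives, among them each library left out except LHX2 replicate 2. Of 7 genes of chromatin assembly at the fork, the CAF-1 subunit gene CHAF1B rose (0.20) and the histone chaperone gene ASF1A fell (-0.30). The CHAF1B call was lost without CTRL replicate 1 (0.18). Of 14 genes of the RB family and of other E2F and DREAM subunits, TFDP2, a dimer partner of E2F proteins (0.40), and MYBL2, which binds the MuvB core (0.24), rose and 12 did not pass. Of 9 genes of the ATR checkpoint, the CDK-inhibiting kinase gene WEE1 rose (0.14) and 8 did not pass. The WEE1 call was lost in 5 of 17 alternatives, among them without LHX2 replicate 1, CTRL replicate 2 or CTRL replicate 3. The shares called were 33.3%, 28.6%, 14.3% and 11.1% in the order of these lists, where 32.5% of all genes tested were called.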

How the data were processed

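Huh7 RNA was purified on columns and converted to stranded mRNA libraries, per the labels' protocols. According to the processing notes of the submitters, the authors ran featureCounts (2.0.0), TopHat2 (2.1.1), SAMtools (1.9) and Bowtie2 (2.3.5.1) with GRCh38/hg38. Neither the annotation nor the strand setting is stated in those sources. What was deposited was a table of raw read counts for 28265 named genes, 30029313 to 39653681 per library, and every per-sample column was used. A control column named in another form was taken as replicate 1 by its final number.

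The edgeR function filterByExpr, at a minimum count of 10, a minimum total of 15 and a proportion of 0.7, kept 14533 genes. TMM factors lay between 0.985 and 1.02. LHX2 was compared with CTRL by the edgeR quasi-likelihood F-test with group as the single term, adjusted by Benjamini-Hochberg over all genes tested at a threshold of 0.05. Standard errors came from the F statistic, and 95% intervals from it and its degrees of freedom. The fits ran in DESeq2 1.42.0, limma 3.58.1 and edgeR 4.0.16 under R 4.3.3, and tables and figures were made in matplotlib 3.10.9, numpy 2.4.6 and pandas 2.3.3 under Python 3.11.15. The fit was tested on simulated data.

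Positions and promoters were those of RefSeq (GRCh38.p14), and transcript length and GC content those of the longest basic transcript in GENCODE release 29. Fully described genes were the members that passed and, in each role, the most counted member and the one with the largest change. From the other lists up to 4 genes with the largest changes were named. The members and lists were chosen with earlier results of these data known. The 17 alternatives were other factors, filters and tools, a replicate block, removal of a loess trend (span 0.3) with length and GC content, and each library left out.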

Additional observations from a re-analysis of the deposited data

How the results depend on the processing

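The share of members called stayed below that of all genes in each of the 17 alternatives, at 11.3% to 24.5% of members against 23.7% to 36.5% of genes. Over all genes 4716 changed, and 3549 to 4567 with a library left out. The count of 9 higher members lay between 5 and 9 with a library left out, the lowest without CTRL replicate 3, and the 2 lower members became 1 to 2. The lower count was also 1 with library totals alone, without a low-count filter, in DESeq2 and in the replicate block, because ORC3 was lost. Some counts went up: 11 members were higher with library totals alone and 10 with a filter of 1 CPM in 3 libraries. With the length and GC trend taken out 10 were higher and 3 lower. Same-numbered libraries did not deviate together (correlations of -0.38 to -0.16), and libraries of different number had correlations of -0.13 to 0.27. With 3 libraries per group these values cannot settle whether samples were paired, and the labels state no pairing. The fit with the replicate block called 3768 genes, with 6 members higher and 1 lower. Of 1173 values of 69 named genes under the alternatives, 52 lost a call and 11 gained one, no called value changed sign, and 53 values changed sign with no call in either fit. The cause of the other lost calls was not tested. Precision differed among members: the median SE was 0.04 on the log2 scale, and 47 of 53 intervals lay within 1.2-fold, with CDT1 reaching 0.33.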
